A study of Homo sapiens with 4 samples.

Results

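The genes described here encode nuclear receptors, the family of transcription factors to which the drug target of this study, ERβ (ESR2), belongs. A list of 45 receptor gene symbols was matched to the 23228 genes in the count files, and all 45 were found, of which 30 passed the expression filter and were tested. The list does not hold every human nuclear receptor. RNA was sequenced from OCSCs labelled SKOV3-ALDH+, which are cells of an established human ovarian cancer line that had been sorted for aldehyde dehydrogenase activity and then grown as spheroids in serum-free medium. The medium of both groups held B27 supplement, EGF, bFGF, insulin and hydrocortisone, the last of which is a ligand of the glucocorticoid receptor. The contents of the B27 supplement are not given, so other receptor ligands may have been present. The Vehicle group (2 samples) received the solvent, and the LY500307 group (2 samples) received 5 µM of the synthetic ERβ agonist LY500307, each for 24 h. The model is a single cell line without an introduced genetic change, and nothing in the labels says whether the samples of a group were separate cultures, so that p-values measure only the spread between these samples.

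Nuclear receptors bind DNA through a domain of paired zinc fingers and, in most members, bind a small lipid-soluble ligand in a pocket near the C-terminus. Steroid receptors such as ERα and ERβ act mainly as dimers of their own kind, whereas receptors for retinoic acid, vitamin D, thyroid hormone, fatty acids and oxysterols pair with a retinoid X receptor (RXR). Others, such as the NR4A, COUP-TF and REV-ERB receptors, are orphan or adopted receptors whose activity depends largely on how much of them a cell makes. In the normal ovary, ERβ is the main estrogen receptor of granulosa cells.

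Genes took between 28841701 and 34943882 counted reads per sample. Expression is given as CPM, read counts scaled to library size with TMM factors, and levels of different genes are compared as CPM per kilobase of exonic length. The LY500307 replicates differed from each other by more than the vehicle replicates did (chi-square per degree of freedom 45.3 against 5.26). The share of uniquely aligned reads that fell on no gene was 25.5% in LY500307 replicate 2 and 28.4% to 30.8% in the others. The cell line was checked against a list of 9 carcinoma markers. EPCAM was high, at 194 to 240 CPM. KRT18 was at 26.3 and 23.5 CPM with vehicle and 29.7 and 31.8 CPM with LY500307 (log2 fold change 0.30, adjusted p = 0.428 by edgeR), and all 4 carcinoma markers tested had a positive log2 fold change. KRT7, KRT19, CDH1, PAX8 and WT1, however, had between 0 and 4 reads in every sample and KRT8 between 9 and 33 reads. ERBB2, whose amplification SKOV3 is known for, had 48.7 to 59.4 CPM. CDKN2A, which SKOV3 is known to have lost and which was looked at after the other values were seen, had 25.8 to 31.9 CPM in all 4 samples. These markers go against the label in part, and they do so in both groups, so the cells are called OCSCs here after the label only. Among 4 aldehyde dehydrogenase genes that the sort can reflect, ALDH1A2 had 10 to 11.3 CPM and ALDH1A1 4.71 to 5.41 CPM, and the other two had 16 reads or fewer in any sample. All 5 fibroblast markers were expressed, with a sum of 652 and 659 CPM with vehicle and of 695 and 774 CPM with LY500307, most of it from COL3A1. Of these, 3 had a positive and 2 a negative log2 fold change, from 0.28 for COL1A1, at 182 and 190 CPM with vehicle and 222 and 230 CPM with LY500307, to -0.20 for DCN, at 9.11 and 9.61 CPM and then 7.58 and 8.76 CPM (adjusted p = 0.422 and adjusted p = 0.634 by edgeR). The leukocyte markers summed to 12.7 and 14.3 CPM with vehicle and 18.5 and 11.8 CPM with LY500307, nearly all from CD68, and the defining marker PTPRC had 0 to 4 reads. The endothelial markers summed to 150 and 133 CPM with vehicle and 151 and 135 CPM with LY500307, nearly all from KDR, and PECAM1 and CDH5 had 0 to 4 reads. Whether the reads of these markers came from the cancer cells themselves or from other cells was not tested.

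For 3 receptor genes, the 250 bases upstream of a RefSeq start are printed, so that the promoter can be read beside the values. Capitals mark exact matches, on either strand, to the nuclear receptor core site AGGTCA, the cAMP response element TGACGTCA, the E-box CACGTG or the GC box GGGCGG. The drug target ESR2 is shown with NR1D2 and NR6A1, both of which had a p below 0.05 in the comparison of the groups; the promoters of NR4A2, NR2F6 and NR2F2 are not shown here. The windows are from GRCh38.p14, chr14:64338614-64338863 on the minus strand, chr3:23945036-23945285 on the plus strand and chr9:124771312-124771561 on the minus strand.
ESR2: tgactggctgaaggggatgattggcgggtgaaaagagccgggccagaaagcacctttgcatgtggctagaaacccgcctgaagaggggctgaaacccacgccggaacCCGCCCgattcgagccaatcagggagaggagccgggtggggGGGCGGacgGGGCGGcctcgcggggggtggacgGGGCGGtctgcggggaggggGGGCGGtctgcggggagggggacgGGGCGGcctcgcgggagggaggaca
NR1D2: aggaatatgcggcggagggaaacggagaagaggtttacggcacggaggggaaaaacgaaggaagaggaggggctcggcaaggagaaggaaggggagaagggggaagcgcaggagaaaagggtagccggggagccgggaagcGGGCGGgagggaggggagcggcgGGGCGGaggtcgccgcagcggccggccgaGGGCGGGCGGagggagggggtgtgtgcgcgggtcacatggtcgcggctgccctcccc
NR6A1: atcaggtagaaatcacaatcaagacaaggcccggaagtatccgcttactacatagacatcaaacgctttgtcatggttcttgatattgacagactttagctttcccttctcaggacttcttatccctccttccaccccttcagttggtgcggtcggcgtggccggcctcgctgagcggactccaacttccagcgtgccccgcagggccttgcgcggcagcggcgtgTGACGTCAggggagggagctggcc
The ESR2 window held 6 GC boxes and that of NR1D2 held 4, of which the last 2 overlap, and both were rich in G and C (71.2% and 70.4%). NR6A1 held no GC box and 1 cAMP response element, which began 24 bases before the start. Other starts give other windows: of 5 for ESR2, 2 held GC boxes and 2 held both an AGGTCA site and an E-box, and of 2 for NR1D2, both held GC boxes and 1 also E-boxes. Among 34941 windows of the same length over all genes, 42.5% held a GC box, 6.32% an E-box and 1.63% a cAMP response element. The core site AGGTCA was found in 12.1% of all windows and in 15 of the 95 windows of receptor genes (15.8%), which belong to 40 genes. The full palindrome of the estrogen response element was in 0 of the 95 windows of receptor genes and in 0.0401% of all windows. A match is a description of the letters only.

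ESR2 (GRCh37 chr14:64550950-64804830, minus strand), which encodes the agonist's target ERβ, was close to the limit of detection. It had 7 reads in vehicle replicate 1, 8 in vehicle replicate 2, 12 in LY500307 replicate 1 and 7 in LY500307 replicate 2. The 2 vehicle samples together had 15 reads, or 0.257 CPM (exact Poisson 95% interval 0.144 to 0.424), and the LY500307 samples had 19 reads, or 0.283 CPM (0.171 to 0.443). These intervals cover counting error only, and a difference between the groups was not detectable at this depth. Per length, ESR2 stood at the 27.9th percentile of 21321 genes, a scale on which NR5A2, with 3 reads over all samples, stood at the 20.8th. The counts do not tell the isoforms of ESR2 apart, and it shares 523 exonic bases with a noncoding RNA gene on the same strand. By other methods, the study reported ERβ protein in SKOV3 ALDH+ cells (antibody staining) and ERβ1 RNA in SKOV3 spheroids (RT-qPCR). It also reported that LY500307 raised the activity of an estrogen response element reporter in SKOV3 spheroids. Read counts are not on the scale of those assays.

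ESR1, which encodes ERα, the usual partner and rival of ERβ, had 0 reads in each of the 4 samples. A count of 0 allows up to 3 reads, which is 0.0864 to 0.106 CPM depending on the sample. PGR, which encodes the progesterone receptor and is a classical target of ERα, was at 0 reads in all samples too, as were NR3C2 (the mineralocorticoid receptor), NR2E1 and NR0B1. The glucocorticoid receptor gene NR3C1 was low, with 60 and 44 reads with vehicle and 71 and 53 reads with LY500307, or 1.78 ± 0.321 CPM and 1.84 ± 0.287 CPM (SD, n = 2 in each group). Of the steroid receptor branch, the estrogen-related receptor ESRRA, an orphan receptor that drives genes of mitochondrial metabolism, was by far the most expressed. It stood at 30.6 and 32.2 CPM with vehicle and at 32.8 and 41.4 CPM with LY500307, with exonic overlap of 284 bases with TRMT112 on the other strand. Both LY500307 samples lay above the vehicle samples and the log2 fold change of 0.24 (standard error 0.144) had an adjusted p of 0.496 by edgeR. This value rested on the LY500307 samples, being 0.07 if replicate 2 was left out and 0.40 if replicate 1 was. Per kilobase of exonic length its level was 487 times that of ESR2, but 383 times by canonical transcripts and 127 times in plain CPM, so that the size of this ratio rests on the length used. Its paralog ESRRB had 23 and 10 reads with vehicle and 7 and 8 reads with LY500307, and it passed the filter through the vehicle samples alone (log2 fold change -1.31, standard error 0.657, adjusted p = 0.445, and -0.64 without vehicle replicate 1). ESRRG had 9 and 16 reads with vehicle and 17 reads in each LY500307 sample.

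The order of the levels was led by a pair of orphan receptors of the COUP-TF group, which mostly repress transcription. NR2F6 averaged 78.5 CPM per kilobase and NR2F1 70.6 CPM per kilobase, the 98.3rd and 98th percentile of all genes by this measure, and together they took 43.3% of the reads of the 45 genes. Next, well below, came NR4A2 (16.1), PPARD (14), RARG (12.4), RXRB (12.3), ESRRA (11), NR2C1 (7.33), NR2C2 (6.7) and RARA (6.17), all in CPM per kilobase. By plain CPM, 20 of the 45 genes were above 10, 6 lay between 1 and 10, and 4 more were tested at below 1. Of the 15 that were not tested, 5 were at 0 reads and 10 had few reads, between 1 in all samples for RXRG, the third RXR gene, and 34 for ESR2. In this order, 33 of 39 pairs of neighbours with any reads overlapped in their sample ranges and cannot be ranked against each other. Of the 6 pairs that did not overlap, the widest step was from NR2F1, whose lowest sample had 69.1 CPM per kilobase, to NR4A2, whose highest had 19.9. NR2F6 and NR2F1 themselves overlapped.

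**Figure D1:**
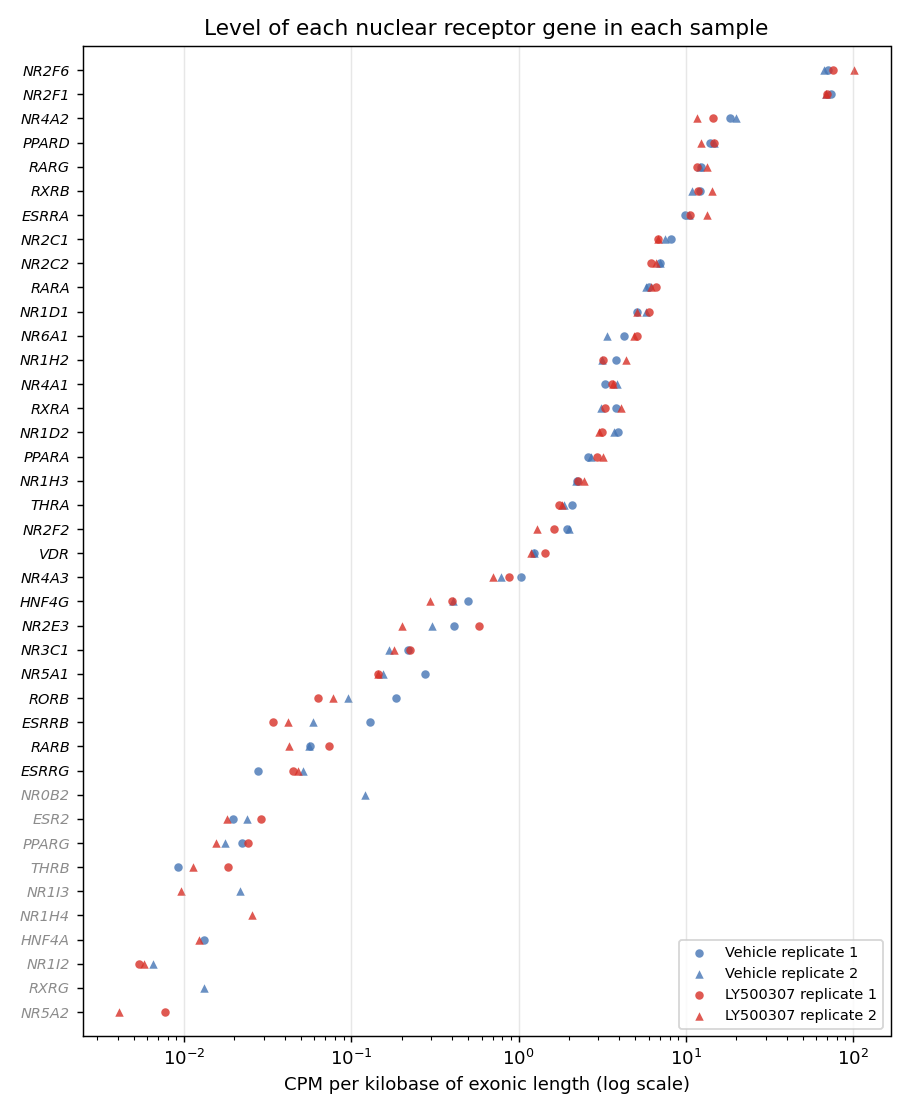
Level of each nuclear receptor gene in CPM per kilobase of exonic length (log axis), with 1 symbol per sample, blue for vehicle and red for LY500307. Genes in grey were not tested, a sample at 0 reads has no symbol, and the 5 genes at 0 in all samples are left out; NR2F6 and NR2F1 stand apart at the top and ESR2 is among the lowest.

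To find which receptor genes differed with the agonist, the groups were compared with edgeR over all 14473 genes tested, and a gene was called where it had p below 0.05 before adjustment and a log2 fold change of more than 0.5 in either direction. Among the 30 receptor genes tested, only NR4A2 was called, being lower with LY500307, which is 3.33% of them beside 4.62% of all genes (1.86% of all genes were called lower and 2.76% higher). An unadjusted p below 0.05 was found for 5 receptor genes, or 16.7% beside 11.6% of all genes. NR4A2, NR2F2 and NR1D2 were the 3 lower with LY500307, beside 5.5% of all genes, and NR6A1 and NR2F6 the 2 higher, beside 6.09%. After Benjamini-Hochberg adjustment, 0 receptor genes and 0 of all genes passed 0.05 by edgeR, with a lowest adjusted p of 0.422, although 1678 genes had an unadjusted p below 0.05. By DESeq2, 16 genes passed the adjusted threshold, none of them a receptor gene, and NR4A2 had the lowest adjusted p of the receptor genes at 0.0909. The smallest p that exact permutation of 2 against 2 samples allows is 0.333. The log2 fold changes of the 30 genes had a median of 0.04 (17 positive, 13 negative) against -5.64e-05 for all genes, and their median absolute size, 0.175, was that of all genes. For 17 of the 30 the absolute log2 fold change was under 0.2. The groups did not overlap for 16 of the 30 receptor genes (53.3%), 6 with LY500307 above and 10 with LY500307 below, beside 48.6% of all genes (24.2% above and 24.4% below). The 10 below and the 13 negative values include ESRRB, which passed the filter through the vehicle samples alone. In bulk RNA, fewer cells expressing a gene and less RNA per cell cannot be told apart.

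**Figure D2:**
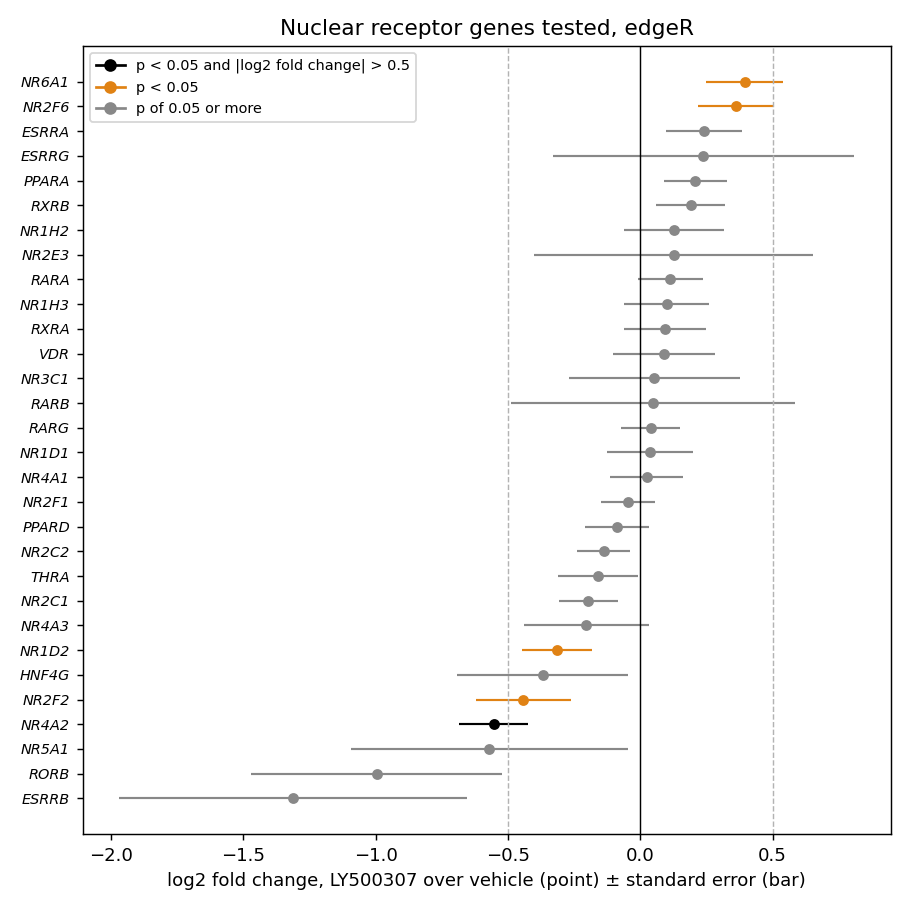
Log2 fold change of LY500307 over vehicle for the 30 nuclear receptor genes tested, with the standard error as a bar and dashed lines at the call threshold of 0.5. NR4A2 (black) is the called gene, NR6A1, NR2F6, NR1D2 and NR2F2 (orange) had a p below 0.05 only, and the genes with the most negative values, ESRRB and RORB, have standard errors of 0.657 and 0.474.

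The NR4A receptors are orphan receptors encoded by immediate early genes, which are switched on within minutes to hours by many stimuli and act without a known physiological ligand. NR4A2 (Nurr1; GRCh37 chr2:157180949-157198860, minus strand) had 2266 and 2330 reads with vehicle and 2069 and 1541 reads with LY500307, or 75.6 and 82 CPM against 59.6 and 47.7 CPM. Both LY500307 samples were thus below both vehicle samples, and the LY500307 samples lay further apart than the vehicle samples did. Its mean fell from 78.8 ± 4.51 CPM to 53.6 ± 8.44 CPM (SD, n = 2 per group), a log2 fold change of -0.55 (standard error 0.132) with an edgeR p of 0.00312 (adjusted p = 0.422). Without LY500307 replicate 2 the log2 fold change was -0.40, and without vehicle replicate 2 it was -0.495, both short of the call threshold.

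The paralog NR4A1 (Nur77) had 23.9 and 28.5 CPM with vehicle and 26.4 and 26.9 CPM with LY500307 (log2 fold change 0.03, standard error 0.138, adjusted p = 0.945). NR4A3 (NOR1) was lower in expression, with 6.57 and 4.96 CPM with vehicle and 5.56 and 4.46 CPM with LY500307 (log2 fold change -0.20, standard error 0.235, adjusted p = 0.714). The groups overlapped for both genes, and the difference between NR4A2 and its paralogs was not tested. Per length, NR4A2 made up 81% of NR4A expression in each vehicle sample and 76.3% and 72.5% in the LY500307 samples, while the share of NR4A1 was 14.4% and 15.8% and then 19% and 23.1%. Of the NR4A reads themselves, not divided by length, NR4A2 took 71.3% and 71% with vehicle and 65.1% and 60.3% with LY500307. On average NR4A2 stood 18.9 times above NR4A3 per kilobase, and 4.45 times above NR4A1. The latter ratio rests on the length given to NR4A1, being 1.79 by canonical transcripts and 2.51 in plain CPM. The sum of NR4A expression was 106 and 115 CPM with vehicle and 91.6 and 79 CPM with LY500307, a ratio of 0.77.

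Of the 3 COUP-TF genes, 2 had a p below 0.05 before adjustment, in opposite directions, and neither was called. Among all genes, 5.5% had such a p and were lower with LY500307, and 6.09% were higher. NR2F2 (COUP-TFII; GRCh37 chr15:96869167-96883492, plus strand) is a regulator of stromal and vascular development. It had 12.7 and 12.9 CPM with vehicle and 10.5 and 8.29 CPM with LY500307 (log2 fold change -0.44, standard error 0.178, adjusted p = 0.428). Without LY500307 replicate 2 the log2 fold change of NR2F2 was -0.28, and without LY500307 replicate 1 it was -0.62. NR2F6 (EAR2; GRCh37 chr19:17342692-17356728, minus strand) restrains cytokine genes in T cells. Its level was 188 and 177 CPM with vehicle and 202 and 267 CPM with LY500307 (log2 fold change 0.36, standard error 0.142, adjusted p = 0.428). The LY500307 samples of NR2F6 were far apart, replicate 1 being close to the vehicle samples, and without replicate 2 the log2 fold change was 0.15, beside 0.55 without replicate 1. NR2F1 (COUP-TFI), a regulator of neural development, was at 325 and 303 CPM with vehicle and at 306 and 303 CPM with LY500307 (log2 fold change -0.05, standard error 0.102, adjusted p = 0.861). Per length, NR2F6 made up 48.2% and 48.3% of COUP-TF expression with vehicle and 51.5% and 58.9% with LY500307, whereas NR2F2 made up 1.33% and 1.44% and then 1.1% and 0.749%.

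NR6A1 (germ cell nuclear factor), a repressor best known from germ cells and early embryos, had a p below 0.05 before adjustment and was not called. Its gene is at GRCh37 chr9:127279554-127533590 (minus strand), and the window with the cAMP response element is printed above. It had 911 and 686 reads with vehicle and 1271 and 1133 reads with LY500307, or 27.3 ± 4.43 CPM against 35.8 ± 1.11 CPM (SD, n = 2 per group). Both LY500307 samples exceeded both vehicle samples, and here the vehicle samples were the more spread. By edgeR its log2 fold change of 0.39 had a standard error of 0.145 and an adjusted p of 0.422, and it ranged from 0.24 to 0.57 when each sample was left out in turn.

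The REV-ERB receptors bind heme and repress clock genes. NR1D2 (REV-ERBβ; GRCh37 chr3:23986777-24022108, plus strand) had 22.8 and 21.6 CPM with vehicle and 18.2 and 17.5 CPM with LY500307, with little spread in either group. By edgeR its log2 fold change of -0.31 had a standard error of 0.133 and an adjusted p of 0.428. NR1D1 (REV-ERBα) had 13.3 and 15.1 CPM with vehicle and 15.8 and 13.4 CPM with LY500307, and the groups overlapped (log2 fold change 0.04, standard error 0.162). NR1D1 shares 473 exonic bases with THRA, the thyroid hormone receptor α gene on the other strand. The study's methods name stranded libraries, but it is not stated whether counting used strand. How reads in the shared bases were assigned, or whether they were left out as ambiguous, is therefore not known. Of 13 clock genes tested around these receptors, 1 had a p below 0.05 in each direction. DBP, an output gene of the clock, went from 27.7 and 30 CPM to 34.3 and 35.9 CPM (log2 fold change 0.28, adjusted p = 0.431), and BHLHE40, a clock repressor, from 137 and 139 CPM to 124 and 105 CPM (log2 fold change -0.27, adjusted p = 0.428).

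**Figure D3:**
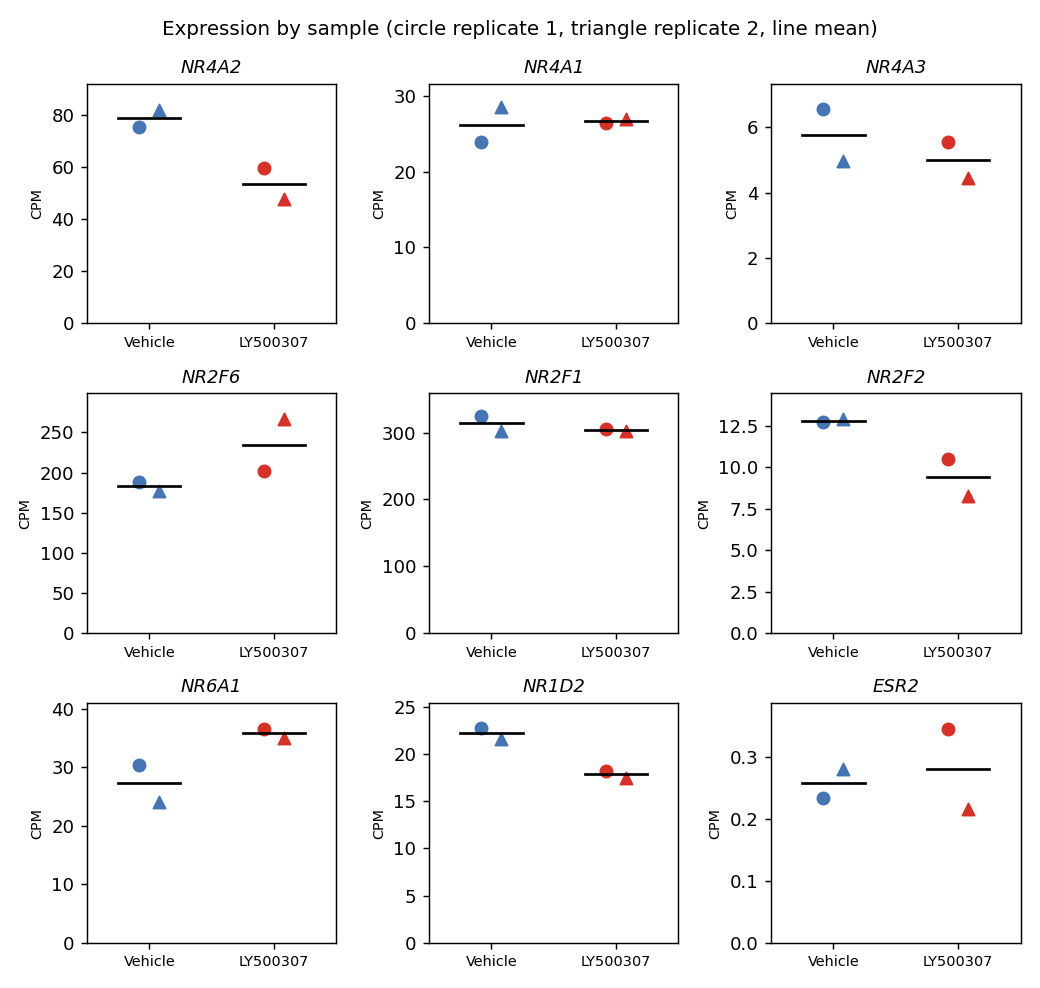
Expression in CPM in each sample (circle replicate 1, triangle replicate 2, line mean; axes start at 0) of the NR4A genes, the COUP-TF genes, NR6A1, NR1D2 and ESR2. The groups do not overlap for NR4A2, NR2F2 and NR1D2 (LY500307 below) or for NR2F6 and NR6A1 (LY500307 above), and they overlap for NR4A1, NR4A3, NR2F1 and ESR2.

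The RXR, RAR and PPAR families each had a pair of expressed paralogs and another gene with few reads, and 0 of these genes had a p below 0.05. RXRB was at 47 and 42.5 CPM with vehicle and 46.6 and 55.6 CPM with LY500307, and RXRA at 45.9 and 37.5 CPM and then 39.5 and 49.5 CPM. Per kilobase of exonic length RXRB stood 3.45 times above RXRA, but 2.13 times by canonical transcripts and 1.11 times in plain CPM, so that the size of this difference rests on the length used. RXRG had a single read. RXRB shares 361 exonic bases with SLC39A7 on the other strand. Among the retinoic acid receptors, RARG was at 63.1 and 62 CPM with vehicle and 59.9 and 68.6 CPM with LY500307, and RARA at 28.7 and 27.6 CPM and then 31.5 and 29.3 CPM. RARB, itself a textbook target of retinoic acid, had 16 and 15 reads with vehicle and 24 and 13 reads with LY500307. RARG took 63.5% to 68.3% of RAR expression per length. Among the fatty acid receptors, PPARD was at 62.6 and 65.9 CPM with vehicle and 65.8 and 55.2 CPM with LY500307, and made up 79.4% to 84.5% of PPAR expression per length. PPARA was at 34.3 and 35.7 CPM with vehicle and 38.7 and 42.2 CPM with LY500307, both LY500307 samples above (log2 fold change 0.21, standard error 0.118, adjusted p = 0.477). PPARG, the receptor that drives fat cell formation, was not tested, with 8 and 6 reads and then 10 and 6 reads.

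The oxysterol receptors NR1H2 (LXRβ) and NR1H3 (LXRα) averaged 19.5 and 10.4 CPM, with log2 fold changes of 0.13 and 0.10 and adjusted p values of 0.783 and 0.802. The vitamin D receptor gene VDR averaged 7.24 CPM and THRA 13.8 CPM, with log2 fold changes of 0.09 and -0.16. NR1H2 and NR1H3 share 1182 and 189 exonic bases with NAPSA and ACP2 on the other strand. THRB had 3 and 0 reads with vehicle and 7 and 4 reads with LY500307. The testicular orphan receptors NR2C1 (TR2) and NR2C2 (TR4) were lower with LY500307 in both samples without passing the test. NR2C1 had 52.8 and 48.3 CPM with vehicle and 43.9 and 44.3 CPM with LY500307 (log2 fold change -0.20, standard error 0.112, adjusted p = 0.477). NR2C2, which shares 7157 exonic bases with MRPS25 on the other strand, had 83 and 82.8 CPM with vehicle and 72.9 and 77.9 CPM with LY500307 (log2 fold change -0.14, standard error 0.1, adjusted p = 0.557). The receptors of liver and gut were low or near 0. HNF4A, NR1H4 (FXR), NR1I2 (PXR), NR1I3 (CAR) and NR0B2 (SHP) had at most 4 reads in any sample, and HNF4G had 46 to 72 reads. The steroidogenic factor gene NR5A1 had 28 and 15 reads with vehicle and 17 and 16 reads with LY500307, and NR5A2 0 to 2 reads. RORB and NR5A1 had log2 fold changes of -0.995 and -0.57 (standard errors 0.474 and 0.524, adjusted p = 0.437 and adjusted p = 0.642). Without vehicle replicate 1 they were -0.44 and -0.0996. RORB had 53 and 26 reads with vehicle and 21 and 24 reads with LY500307, so that vehicle replicate 1 stood apart from the other 3 samples. The retinal receptor gene NR2E3 had 40 and 28 reads and then 65 and 21 reads.

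Exonic GC content of the 30 genes ran from 37.9% to 70.9%, and a correction for GC moved several of their values. NR2F6 has the highest GC content of these genes, 70.9%, and its log2 fold change was 0.11 with the correction in place of 0.36. ESRRA went from 0.24 to 0.09 and NR1D2, with a GC content of 39.1%, from -0.31 to -0.205. NR2C1, the gene of lowest GC content (37.9%), went from -0.20 to -0.0636. NR4A2 moved from -0.55 to -0.59 and NR6A1 from 0.39 to 0.35, and NR2F2 from -0.44 to -0.50, at which it was called too. RARA, RARG, RXRA, NR1D1 and NR4A1, all with log2 fold changes of 0.03 to 0.11, changed sign.

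**Figure D4:**
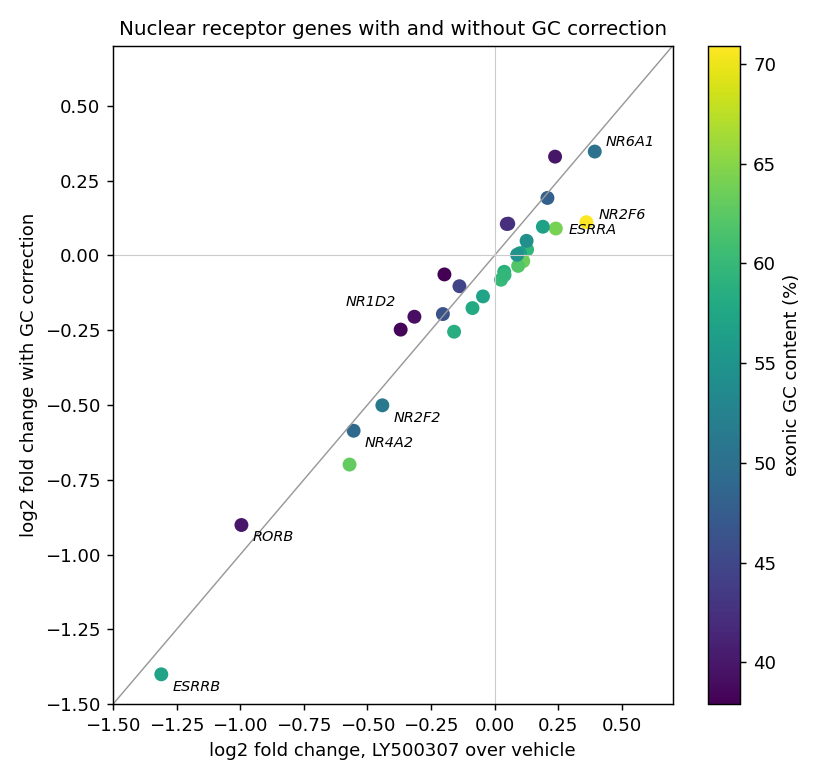
Log2 fold change with a GC correction (vertical axis) against that without it (horizontal axis) for the 30 nuclear receptor genes tested, coloured by exonic GC content in percent, with the diagonal where both are equal. GC-rich genes such as NR2F6 and ESRRA lie below the diagonal and GC-poor ones such as NR1D2 above it, and NR4A2 lies close to it.

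Genes that act with the receptors were read from 11 lists of textbook partners and targets, in which 118 genes were tested. Of these, 3 genes (2.54%) were called, beside 4.62% of all genes. A p below 0.05 was found for 9 that were higher with LY500307 (7.63%, beside 6.09% of all genes) and 3 that were lower (2.54%, beside 5.5%). Among 21 coregulators tested, 4 had a positive and 17 a negative log2 fold change (median -0.07), where 50% of all genes had a positive one. The 22 coregulators listed summed to 4110 CPM in each vehicle sample and in LY500307 replicate 1. In LY500307 replicate 2 they summed to 3590 CPM, so that in sum only this sample was lower. Of the coregulators 0 were called and 1 had a p below 0.05, PPARGC1B, a coactivator of ERRs, at 41.1 and 38 CPM with vehicle and 32.1 and 30.1 CPM with LY500307 (log2 fold change -0.35, standard error 0.121, adjusted p = 0.422). Of the 12 genes of the HSP90 chaperone cycle that folds steroid receptors, 3 had a positive and 9 a negative log2 fold change, with a median of -0.15, and 1 had a p below 0.05. This was DNAJB1, an HSP40 cochaperone, at 107 and 101 CPM with vehicle and 120 and 128 CPM with LY500307 (log2 fold change 0.25, adjusted p = 0.428). The 12 chaperone genes summed to 7370 and 7460 CPM with vehicle and to 7390 and 5960 CPM with LY500307. Here too, in sum, only LY500307 replicate 2 lay below the vehicle samples.

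Of 10 textbook estrogen receptor targets, 8 were tested and 1 had a p below 0.05. This was CTSD, the lysosomal protease cathepsin D, at 83.6 and 88.5 CPM with vehicle and 94.8 and 126 CPM with LY500307 (log2 fold change 0.36, standard error 0.142, adjusted p = 0.428). GREB1, an estrogen-induced cofactor of ERα, was at 48.1 and 43.7 CPM and then 44 and 48.4 CPM (log2 fold change 0.01), and TFF1, a secreted peptide induced by ERα, had 0 reads. The median of the 8 was 0.04. Of the 9 glucocorticoid receptor targets tested, 0 had a p below 0.05, the lowest being that of KLF9, a zinc finger factor, at 15.3 and 16.3 CPM with vehicle and 23.4 and 17 CPM with LY500307 (log2 fold change 0.35, adjusted p = 0.448). FKBP5, a cochaperone that feeds back on the glucocorticoid receptor, was high throughout, at 402 and 421 CPM with vehicle and 390 and 308 CPM with LY500307.

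Of 12 retinoid genes tested, 0 had a p below 0.05, and the lowest was that of RDH10, which makes retinal from retinol, at 113 and 99.5 CPM with vehicle and 112 and 124 CPM with LY500307 (log2 fold change 0.15, adjusted p = 0.573). Of 10 PPAR targets, 1 was called, PDK4, a kinase that holds back glucose oxidation, on few reads (22 in each vehicle sample, 13 and 8 with LY500307, log2 fold change -1.26, standard error 0.535, adjusted p = 0.428), a call that was lost whichever sample was left out, at log2 fold changes of -1.59 to -0.999. Of 8 LXR targets tested, 7 had a positive and 1 a negative log2 fold change, with a median of 0.18, and 1 had a p below 0.05. It was APOE, the carrier of lipids between cells, at 288 and 290 CPM with vehicle and 344 and 349 CPM with LY500307 (log2 fold change 0.26, standard error 0.0988, adjusted p = 0.422). Only 3 of 10 vitamin D and thyroid hormone receptor targets could be tested, and 0 had a p below 0.05, CD14, a coreceptor for bacterial lipopolysaccharide, having the lowest, with 12 and 22 reads with vehicle and 6 and 9 reads with LY500307 (adjusted p = 0.437).

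Of 10 mitochondrial targets of ERRα, 1 was called and 2 had a p below 0.05, beside 4.62% and 11.6% of all genes. NDUFA4, a subunit of the respiratory chain, was at 54.1 and 59.6 CPM with vehicle and 66.6 and 139 CPM with LY500307 (log2 fold change 0.85, standard error 0.287, adjusted p = 0.422), and at 0.23 without LY500307 replicate 2. COX5B, of cytochrome c oxidase, was at 112 and 123 CPM and then 172 and 149 CPM (log2 fold change 0.45, adjusted p = 0.422). Of 16 immediate early genes, the class that NR4A2 belongs to, 10 had a positive and 6 a negative log2 fold change, with a median of 0.09. A p below 0.05 was found for 3 of them, all higher with LY500307, and 1 of these was called. Over all genes, 6.09% had such a p and were higher, and 2.76% were called higher. The called gene was JUN, a subunit of AP-1, with 207 and 149 reads with vehicle and 302 and 278 reads with LY500307 (log2 fold change 0.51, standard error 0.203, adjusted p = 0.428), and without vehicle replicate 2 its log2 fold change was 0.33. BTG2 and IER2 had log2 fold changes of 0.39 and 0.38 (adjusted p = 0.422 for both), against -0.55 for NR4A2. Among the 6 negative ones, FOSB was at -0.26, KLF6 at -0.24 and ZFP36 at -0.24, none with a p below 0.05. Adjusted p values of the genes with a p below 0.05 in these lists were 0.422 to 0.431.

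**Figure D5:**
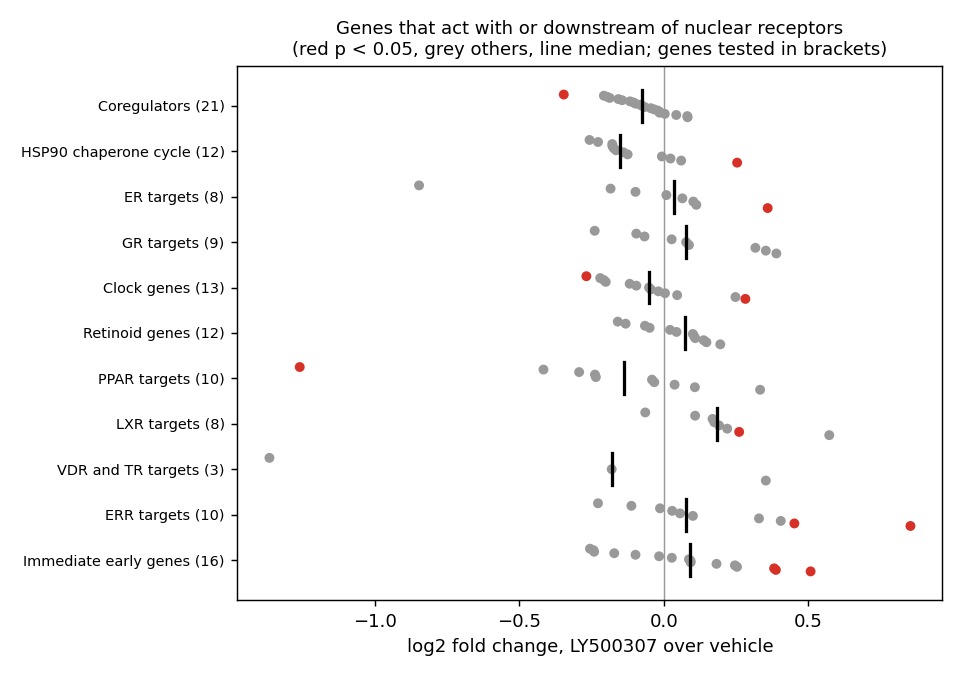
Log2 fold change of LY500307 over vehicle for each gene tested in 11 lists of nuclear receptor partners and targets, with a line at the median of each list and red points for an p below 0.05 by edgeR. Medians run from -0.18 for vitamin D and thyroid hormone receptor targets (3 genes) to 0.18 for LXR targets, and most genes lie close to 0.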

How the data were processed

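RNA was taken from the 4 samples and libraries were sequenced as single reads. Per the submitters' processing notes and the study's methods, the authors aligned reads to hg19 with TopHat2 (2.0.8b) and counted reads per gene with HTSeq, and the deposited values are raw counts for each gene. The strand setting of the counting is not given in the sources used here. Rows that named no gene were left out (no feature 25.5% to 30.8% of uniquely aligned reads, ambiguous 0.661% to 0.71%). Counts were compared in edgeR (4.0.16, R 4.3.3) with TMM scaling, its default expression filter (a CPM of about 0.325 in at least 2 samples) and the quasi-likelihood test, on 14473 genes, with Benjamini-Hochberg adjustment. DESeq2 (1.42.0), other scalings and filters, a replicate block, a GC correction and leaving out each sample were alternatives. Exonic lengths (union of exons), GC content and coordinates came from GENCODE v44 on GRCh37, where 21321 of 23228 genes (91.8%), among them all 45 receptor genes, were matched by symbol, 2184 by an older symbol. Promoter windows came from RefSeq on GRCh38.p14, another build than that of the counts. The receptor genes and the other lists were chosen with earlier results of these data known, by textbook role. Values in each sample are given for ESR1, ESR2, receptor genes with a p below 0.05, the 10 of highest level and their closest paralogs, and from each other list the called genes or else the gene of lowest p; the others named were chosen after their values were seen. Counting precision is limited by 28841701 to 34943882 reads per sample, and intervals and floors (3 reads, 0.0864 to 0.106 CPM) cover counting error only.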

Additional observations from a re-analysis of the deposited data

How the results depend on the processing

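NR4A2 was called by both tools, under every scaling and filter and when blocked by replicate, at log2 fold changes of -0.59 to -0.52 and adjusted p values of 0.0909 to 0.514. With the GC correction, and with it and the replicate block, 2 receptor genes were called (NR2F2 and NR4A2). Leaving out each sample gave 0 to 3 called receptor genes, 352 to 1987 called genes (669 with all samples), 148 to 1067 called higher (400), 0 to 5002 with an adjusted p below 0.05 (0), 3 to 11 called in the other lists (3) and 2 to 11 receptor genes with a p below 0.05 (5). Without vehicle replicate 1 the called receptor genes were NR4A2 and NR6A1, without vehicle replicate 2 ESRRB and RORB, without LY500307 replicate 1 NR2F2, NR2F6 and NR4A2, and without LY500307 replicate 2 there were 0. Where a group was left with 1 sample, that sample was assumed to vary like the other group. Receptor genes with a p below 0.05 numbered 3 with DESeq2, library totals, the GC correction, and the block with GC correction. Genes with an adjusted p below 0.05 numbered 16 for DESeq2, 1 for the replicate block and 2 for block and GC correction. In the other lists 0 genes were called by DESeq2, and 1 with the GC correction with or without the block. The correlation of same-numbered deviations from the group means was -0.0701 over 14473 genes. With 2 samples in each group, this cannot show whether replicate numbers paired the samples. The block gave 717 called genes. Of the calls, 59.8% were higher with LY500307, beside 69.7% with library totals, 51.5% with the GC correction and 47.6% with block and GC correction. With the GC correction, and with the block and GC correction, log2 fold changes turned to -0.0548 and -0.061 for NR1D1, -0.0814 and -0.077 for NR4A1, -0.0191 and -0.024 for RARA, -0.0657 and -0.0663 for RARG and -0.0351 and -0.0315 for RXRA, and with both to -0.0737 for NR2E3 and -0.00593 for VDR. Leaving out a sample gave ranges through 0 for ESRRG (-0.15 to 0.75), NR1D1 (-0.083 to 0.154), NR1H2 (-0.12 to 0.34), NR2E3 (-0.83 to 0.69), NR2F1 (-0.0949 to 0.00589), NR3C1 (-0.12 to 0.25), NR4A1 (-0.095 to 0.156), NR4A3 (-0.391 to 0.0143), PPARD (-0.216 to 0.0361), RARB (-0.39 to 0.38), RARG (-0.0597 to 0.137), RXRA (-0.0764 to 0.248) and VDR (-0.0555 to 0.223). The other 16 of 30 kept their direction in all of these. Of the other lists' calls, PDK4 passed the p threshold no longer with DESeq2, library totals, no filter, the replicate block and the GC correction, at log2 fold changes of -1.27 to -1.14, nor JUN and NDUFA4 with DESeq2, at 0.51 and 0.86. With the GC correction JUN was at 0.42. Of the 10 receptor genes of highest level, 8 were kept by plain CPM and 9 by the length of the canonical transcript, the latter chosen after seeing the data. The causes of these changes were not tested.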
